A study of Mus musculus with 4 samples.

Results

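Glycolysis splits glucose into pyruvate, and a cell that turns pyruvate into lactate must send that lactate out through a transporter. The genes described here cover this route: the glucose transporter Slc2a1 (GLUT1), the hexokinases Hk1 and Hk2, the phosphofructokinase subunit Pfkl, the enzymes Aldoa, Pgk1, Eno1 and Pkm of the later steps, the lactate dehydrogenase subunit Ldha, and the lactate exporter Slc16a3 (MCT4). They were picked by gene symbol, with no threshold on a measured value. Of the 10 symbols, 8 were analysed among 19465 genes, and Eno1 and Ldha were not analysed here. Aldoa stands on 2 rows with different identifiers. The row ENSMUSG00000030695 is the one reported, and the row ENSMUSG00000114515, which had 27 to 167 UMIs per section, was kept apart.

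The study compared primary mammary tumors with lungs that carried metastases. BALB/c mice of 8 weeks received 100000 4T1 cells in the mammary fat pad, and 28 days later the tumor and the lungs were taken. 4T1 is 1 cell line, from a mouse triple-negative mammary carcinoma, and is known to metastasize to the lungs. Mice Mouse_627 and Mouse_628 each gave 1 section of the primary tumor and 1 of the lung, so that n = 2 sections for each tissue, both tissues come from the same animals, and no lung free of injected cells is among the 4 sections. Fixed, paraffin-embedded sections of 4 micrometers were hybridized with pairs of probes to each gene and captured on barcoded Visium spots, and each counted molecule carries an identifier (UMI). Several cells, often of unlike types, can lie under one spot.

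Of 9445 spots under tissue, the 9339 with more than 200 detected genes were kept. Primary tumor Mouse_627, primary tumor Mouse_628, lung Mouse_627 and lung Mouse_628 held 13532158, 10890154, 11122812 and 30240176 UMIs, with medians of 2931, 1820, 6555 and 9174.5 UMIs per spot. Levels are given per 1000000 UMIs of the section or class of spots (CPM), and since each gene is read by its own probes, levels were not compared between genes. The labels were checked against marker genes. The summed CPM of 5 carcinoma markers (such as Csf3 and Mmp3) was 3879 and 4744 in the tumors but 90.7 in lung Mouse_627 and 1066 in lung Mouse_628, that of the alveolar markers was 15 and 57.2 against 13580 and 7688, and that of 10 neutrophil markers was 2681 and 11585 against 83664 and 33940, in the same order of sections. Lung Mouse_627 thus had few UMIs of carcinoma markers, and the values without it are given where they change a call. Mmp3 alone gave 2439 and 3238 CPM of the carcinoma sums in the tumors. Plau, another of the 5, had 304 CPM in lung Mouse_628 beside 304 and 243 CPM in primary tumors Mouse_627 and Mouse_628. All 5 had negative fold changes in lung against primary tumor, but the edgeR test described below called none of them. In spots of mixed tissue, fewer cells of a type and less RNA per cell cannot be told apart.

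As background, tumors often run glycolysis and lactate export at a high rate, and several genes of the route are known targets of the hypoxia-inducible factors (HIF), which bind the core letters ACGTG in front of genes when oxygen is low. The windows of 250 bases upstream of each RefSeq start (GRCm38.p6, C57BL/6J sequence, while the mice were BALB/c) were therefore searched for ACGTG and its reverse complement CACGT. All 8 genes were matched, with 12 starts. At least 1 match stood in front of 6 of the 8 genes, while 18.5% of 27025 genes had one. By start it was 7 of 12, while 16.6% of 32851 windows of all genes held one. Hk1 and Pfkl had none in their windows. Since the results below turn on how these genes follow hypoxia markers, the windows of Hk2 at chr6:82774455-82774704 (minus strand) and Pgk1 at chrX:106186850-106187099 (plus strand), each with 2 matches, are shown whole and 5′ to 3′ on the strand of the gene. The 30 bases around the matches are shown for Slc2a1 at chr4:119108697-119108726 (plus strand), Slc16a3 at chr11:120949034-120949063 (plus strand, 2 matches), Aldoa at chr7:126799363-126799392 (minus strand) and Pkm at chr9:59657140-59657169 (plus strand). These starts need not be those of the annotation below. Capitals mark the matches, which are a description of the sequence and not evidence of binding.
Hk2: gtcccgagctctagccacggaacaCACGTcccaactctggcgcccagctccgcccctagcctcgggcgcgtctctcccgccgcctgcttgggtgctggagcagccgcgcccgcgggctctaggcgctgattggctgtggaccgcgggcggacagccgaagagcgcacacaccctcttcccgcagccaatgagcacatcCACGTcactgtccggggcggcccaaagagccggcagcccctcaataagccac
Pgk1: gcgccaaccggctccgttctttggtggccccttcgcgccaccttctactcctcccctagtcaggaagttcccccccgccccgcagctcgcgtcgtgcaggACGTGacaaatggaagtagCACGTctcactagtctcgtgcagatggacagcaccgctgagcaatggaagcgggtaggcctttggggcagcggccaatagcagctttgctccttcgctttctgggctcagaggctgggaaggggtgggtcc
Slc2a1: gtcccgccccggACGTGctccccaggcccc
Slc16a3: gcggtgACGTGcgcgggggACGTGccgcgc
Aldoa: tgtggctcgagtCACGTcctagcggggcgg
Pkm: ctccgatccggtCACGTccgcgccgcagca

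In mm10 with the annotation used here, Slc2a1 (ENSMUSG00000028645) spans chr4:119108711-119137983 on the plus strand, Hk1 (ENSMUSG00000037012) chr10:62268855-62379908 on the minus strand and Hk2 (ENSMUSG00000000628) chr6:82725025-82774454 on the minus strand. Pfkl (ENSMUSG00000020277) lies on the minus strand at chr10:77986947-78010083, Aldoa on the minus strand at chr7:126795234-126800751, and Pgk1 (ENSMUSG00000062070) on the plus strand at chrX:106187100-106203699. Pkm (ENSMUSG00000032294) and Slc16a3 (ENSMUSG00000025161) lie on the plus strand at chr9:59656368-59679375 and chr11:120948480-120960868. All are annotated as protein-coding genes. The second Aldoa row lies directly upstream at chr7:126800790-126809108 on the same strand.

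Together the 8 genes took 0.749% and 0.806% of the UMIs of primary tumors Mouse_627 and Mouse_628, but only 0.237% and 0.327% of those of lungs Mouse_627 and Mouse_628. Of the 8, 7 were lower in both lungs than in both tumors, and Slc16a3 was not. Such a separation was seen for 37.8% of the 15267 genes tested, so it is common among all genes. Slc2a1, whose product carries glucose into the cell, measured 931 and 1237 CPM in primary tumors Mouse_627 and Mouse_628, and 163 and 201 CPM in lungs Mouse_627 and Mouse_628. The lungs lay close together and far below both tumors.

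**Figure D1:**
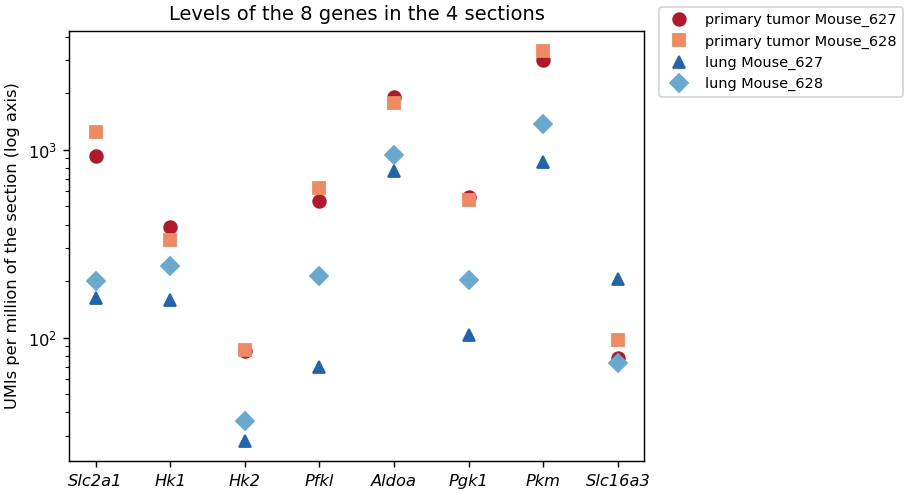
Level of each gene in CPM (vertical log axis) in the 4 sections, 1 point per section. Both lungs lie below both primary tumors for 7 of the 8 genes, and the Slc16a3 values of the tissues overlap.

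Of the hexokinases, which trap glucose in the cell as glucose 6-phosphate, Hk2 measured 84.9 and 85.8 CPM in the tumors against 28.1 and 36.1 CPM in lungs Mouse_627 and Mouse_628. Hk1 measured 387 and 333 CPM in primary tumors Mouse_627 and Mouse_628 against 159 and 240 CPM in the lungs. The tissues did not overlap for either hexokinase, and the gap was narrower for Hk1. Pfkl, the liver-type subunit of the enzyme that commits sugar to glycolysis, stood at 534 and 626.9 CPM in the tumors, but at 69.9 CPM in lung Mouse_627 and 214 CPM in lung Mouse_628. As a ratio, the lungs themselves therefore differed by about as much in Pfkl as lung Mouse_628 differed from the tumors.

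Among the later enzymes, Aldoa, which splits fructose 1,6-bisphosphate, had 1898 and 1777 CPM in primary tumors Mouse_627 and Mouse_628 and 772 and 941 CPM in the lungs. Pgk1, which makes ATP from 1,3-bisphosphoglycerate, had 563 and 537 CPM in the tumors and 103 and 202 CPM in lungs Mouse_627 and Mouse_628. Pkm, the pyruvate kinase gene, had 3013 and 3362 CPM in the tumors and 864 and 1368 CPM in the lungs. For all of these the value of lung Mouse_628 was above that of lung Mouse_627 and below both tumors. Slc16a3 had another order: it measured 77.8 and 97.6 CPM in primary tumors Mouse_627 and Mouse_628, 206 CPM in lung Mouse_627 and 73.6 CPM in lung Mouse_628. Its highest and its lowest value both came from lungs.

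The tissues were compared by edgeR's quasi-likelihood test on the summed UMIs of each section, with p-values adjusted over all genes tested. Of the 8 genes, 1 passed the threshold of 0.05, where 7.46% of all genes passed in either direction and 1.15% were called lower in the lungs. This gene was Slc2a1, with a log2 fold change of -2.28 ± 0.43 (SE), which is 4.85-fold lower in the lungs (edgeR adjusted p = 0.016). The others with an unadjusted p under 0.05, which made 5 of the 8 beside 23.2% of all genes, were Pfkl at -1.80 ± 0.50 (edgeR adjusted p = 0.063), Pgk1 at -1.60 ± 0.42 (edgeR adjusted p = 0.053), Hk2 at -1.13 ± 0.34 (edgeR adjusted p = 0.084) and Pkm at -1.24 ± 0.49 (edgeR adjusted p = 0.17). Aldoa at -0.81 ± 0.46, Hk1 at -0.58 ± 0.39 and Slc16a3 at 1.05 ± 0.53 had edgeR adjusted p-values of 0.32, 0.41 and 0.27. The median over the 8 genes was -1.18, beside -0.0046 over all genes tested.

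Over 10 alternatives the log2 fold change of Pfkl ran from -2.41 to -1.10 and that of Pgk1 from -1.79 to -1.13. That of Slc2a1 stayed between -2.49 and -2.08 over the same alternatives. Its call was lost with 1 lung left, at -2.09 without lung Mouse_627 and -2.08 without lung Mouse_628 (edgeR adjusted p = 0.22 and 0.10). With the mouse as a block, 3 genes were called lower, namely Slc2a1 (edgeR adjusted p = 0.0023), Pfkl (0.0033) and Pgk1 (0.017), and 11.9% of all genes were called. DESeq2 called 5 of the 8, beside 17.3% of all genes. Without lung Mouse_628, Slc16a3 was called higher at a log2 fold change of 1.88 and Pfkl lower at -2.41 (edgeR adjusted p = 0.0037 and 0.012), while without lung Mouse_627 Slc16a3 stood at 0.09. The neutrophil, alveolar and carcinoma markers named above differed between the tissues along with these genes. Of the 11 hypoxia markers used below, 10 had negative fold changes, with 5 called lower in the lungs by edgeR and a median of -1.88. The part of all these markers in the difference was not tested.

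From a list of 30 further genes of glycolysis, pyruvate and lactate handling, 23 were tested, of which edgeR called 3 higher and 4 lower in the lungs. Slc2a3, which encodes the glucose transporter GLUT3, measured 43.2 and 69.7 CPM in primary tumors Mouse_627 and Mouse_628 against 408 and 180 CPM in lungs Mouse_627 and Mouse_628, a log2 fold change of 2.75 ± 0.54 (edgeR adjusted p = 0.017). In direction it was thus the opposite of Slc2a1. Pfkfb4, an enzyme that sets the level of the phosphofructokinase activator fructose 2,6-bisphosphate, rose from 16.3 and 28.3 CPM to 189 and 101 CPM (log2 fold change 3.06 ± 0.50, edgeR adjusted p = 0.0093). Eno2, a second enolase gene, fell from 153 and 171 CPM in the tumors to 5.66 and 23.1 CPM (log2 fold change -3.25 ± 0.55, edgeR adjusted p = 0.010), and Aldoc, a second aldolase gene, from 72.9 and 80.8 CPM to 5.93 and 16.9 CPM (-2.50 ± 0.46, edgeR adjusted p = 0.014).

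The remaining calls, named after their values were seen, were Hk3, a hexokinase known from myeloid cells, at a log2 fold change of 2.10 (edgeR adjusted p = 0.046), Pdk1, a kinase that holds pyruvate back from the mitochondria, at -1.94 (0.023), and the platelet-type phosphofructokinase subunit Pfkp at -1.80 (0.022). All 7 were also called with the mouse as a block. Gapdh had only 8 to 145 UMIs per section, so few for a gene of every cell that no level was read from it. Of 15 genes of the tricarboxylic acid cycle, which burns pyruvate in mitochondria, edgeR called none, with 2 at an unadjusted p under 0.05 and a median log2 fold change of -0.012.

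**Figure D2:**
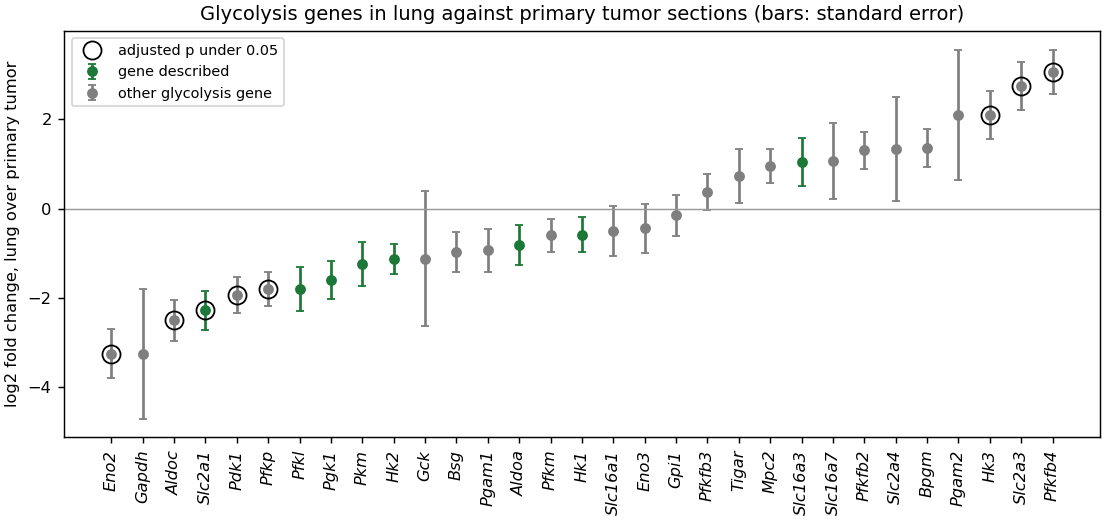
Log2 fold change of lung over primary tumor sections (vertical axis) with its standard error for the 8 genes described (green) and 23 other genes of the route (grey), in order of the fold change. Circles mark an edgeR adjusted p under 0.05, and Slc2a1 and Slc2a3 stand near opposite ends at -2.28 and 2.75.

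For a comparison of the spots with most carcinoma markers in each section, spots were scored by the mean of log2(UMIs per 10000 + 1) over the 5 carcinoma markers. They were ranked by this score within 10 strata of spot depth, and the upper 25% were compared. These carcinoma-rich spots, a name that ranks spots only within their own section, held unequal amounts of the markers, with 5613 and 7560 CPM in primary tumors Mouse_627 and Mouse_628 but 326 and 1890 CPM in lungs Mouse_627 and Mouse_628. The rich spots of lung Mouse_627 thus held less than the carcinoma-poor spots of lung Mouse_628, which had 394 CPM. Other cells differed too, with neutrophil markers at 2586 and 11127 CPM in the tumors against 69470 and 15191 CPM in the lungs, and alveolar markers at 14.8 and 49.3 CPM against 12717 and 4147 CPM. Slc2a1 measured 992 and 1285 CPM in carcinoma-rich tumor spots and 161 and 265 CPM in those of lungs Mouse_627 and Mouse_628. Pgk1 measured 597 and 543 CPM against 105 and 271 CPM, and Pfkl 556 and 624 CPM against 83.5 and 313 CPM. All 3 genes kept both lungs below both tumors. Slc16a3 overlapped again, with 72.3 and 85.7 CPM in the tumors and 173 and 43.1 CPM in lungs Mouse_627 and Mouse_628.

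None of the 8 genes was called by edgeR in this comparison, in which 0% of 12362 genes passed and 14.7% had an unadjusted p under 0.05. Of the 8, 6 had an unadjusted p under 0.05, led by Slc2a1 at a log2 fold change of -2.43 ± 0.38 (edgeR adjusted p = 0.22), and DESeq2 called 4 lower, beside 7.03% of all genes called. All 10 neutrophil, 9 alveolar and 6 endothelial markers tested had positive fold changes, with none called and 9, 9 and 5 at an unadjusted p under 0.05. Of the 11 hypoxia markers used below, 10 had negative ones, with a median of -1.83, none called and 8 at an unadjusted p under 0.05. The part of all these markers in the lower levels was not tested. The median of the 8 was -1.28 beside 0.0077 over all genes. Over 13 alternatives the log2 fold change ran from -2.55 to -0.81 for Pfkl and from -2.18 to -0.97 for Pgk1. For Pkm it ran from -1.60 to -0.91 and for Slc2a1 from -2.55 to -1.99. Without lung Mouse_627, Slc2a1 was called at -1.99 (edgeR adjusted p = 0.00013), and Slc16a3 changed sign to -0.76. Without lung Mouse_628, 5 genes were called, with Slc16a3 higher at 1.41 and Slc2a1, Pfkl, Pgk1 and Pkm lower, and the same fit called 15.1% of all genes. Without lung Mouse_627 it was 5.63%.

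Within the lungs, carcinoma-rich spots were set against carcinoma-poor ones, with the section as a block. The sections behaved differently. In lung Mouse_628, Pfkl measured 313 CPM in rich and 132 CPM in poor spots, Pgk1 271 and 141 CPM, and Slc2a1 265 and 154 CPM, while Slc16a3 measured 43.1 CPM in rich and 102 CPM in poor spots. In lung Mouse_627, where the 5 markers were at 0 in the poor spots, the same genes measured 83.5 and 66.8 CPM (Pfkl), 105 CPM in both classes (Pgk1), 161 and 166 CPM (Slc2a1) and 173 and 221 CPM (Slc16a3). Slc16a3 was thus lower and Pfkl higher in the rich spots of both lungs, a direction that 28.2% and 45.6% of all genes tested shared.

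By edgeR none of the 8 genes was called between these classes, where 0% of 13201 genes passed, and 3 had an unadjusted p under 0.05 beside 20.6% of all genes. These were Slc16a3 at -0.88 ± 0.26 (edgeR adjusted p = 0.24), Pfkl at 0.71 ± 0.26 (0.24) and Hk2 at 0.45 ± 0.17 (0.24). DESeq2 called none of the 7 genes to which it gave an adjusted p, Hk2 being without one. The median of the 8 was 0.25 beside 0.0100 over all genes. The rich spots of lung Mouse_628 also held 15191 CPM of neutrophil markers against 51707 CPM in the poor ones. Alveolar markers stood there at 4147 against 11845 CPM and endothelial markers at 474 against 1096 CPM. Proliferation markers stood at 2014 against 1066 CPM and hypoxia markers at 1009 against 577 CPM. The part of all these in the differences was not tested.

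The maps of the sections show the same contrast in place. Averaged over each spot and its direct neighbors, the 7 genes without Slc16a3 had a median of 7277 and 7188 CPM in primary tumors Mouse_627 and Mouse_628, with 4578 and 9336 CPM and 3907 and 9388 CPM at the quantiles of 0.05 and 0.95 over spots. In lung Mouse_627 the median was 2172 CPM and these quantiles lay close, at 1690 and 2636 CPM. Lung Mouse_628 had a median of 2603 CPM with quantiles of 1920 and 5231 CPM, and its high spots lay in round areas and along 1 edge. The central round areas were low in Slc16a3, whose quantiles in lung Mouse_628 were 0 and 210 CPM. In the tumors the Slc16a3 map is coarse, since shallow spots often held none of its UMIs.

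**Figure D3:**
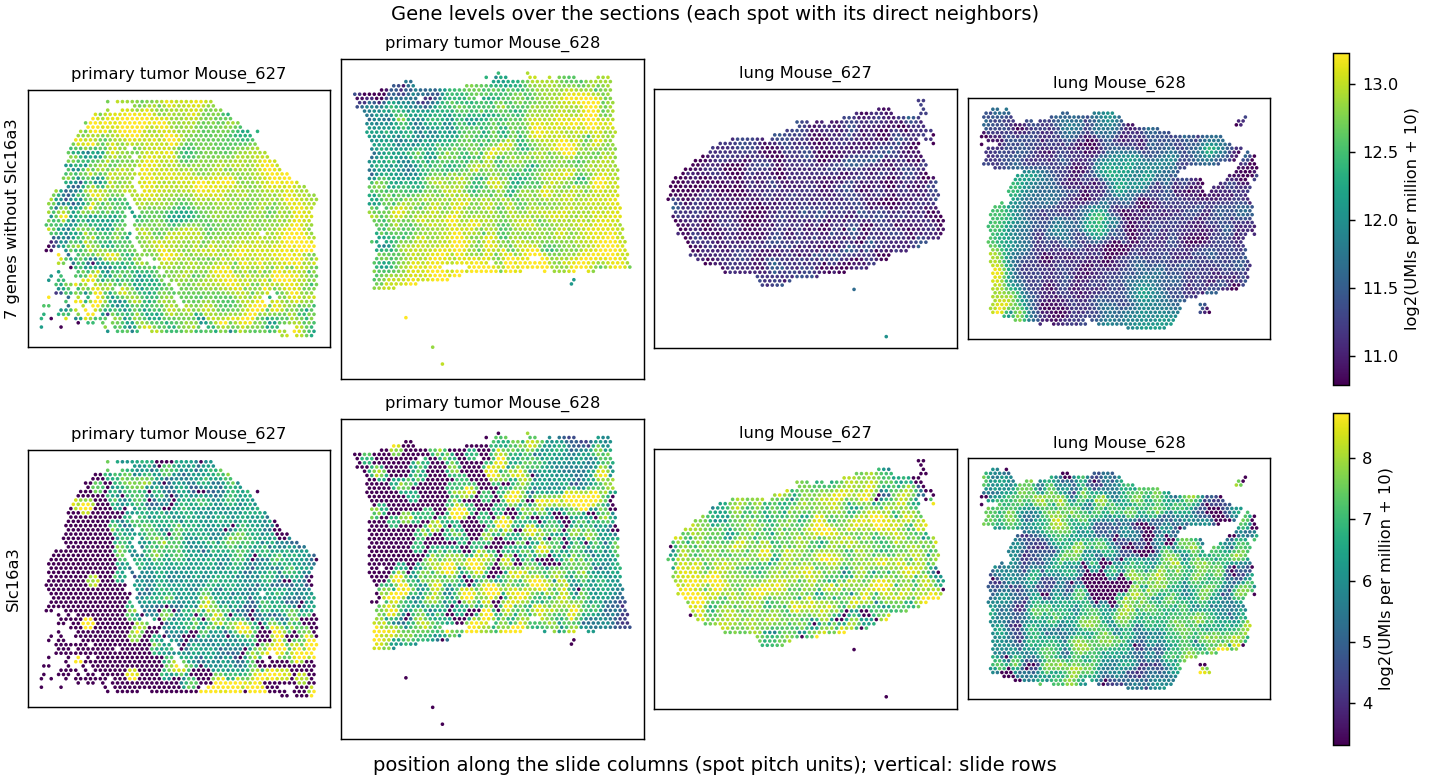
Spots of the 4 sections at their place on the slide, colored by log2(CPM + 10) of each spot with its direct neighbors, for 7 genes without Slc16a3 (upper row) and for Slc16a3 (lower row). The tumors are high for the 7 genes (medians 7277 and 7188 CPM), lung Mouse_627 is evenly low (2172 CPM), and lung Mouse_628 has round areas of higher level.

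The next comparison asked whether the genes follow hypoxia markers inside a section. Spots were scored by 11 markers of hypoxia, such as Car9, Ndrg1 and Adm, none of which is among the genes described, and the upper 25% was set against the lower 25% within 10 strata of depth. Spots tied at the lower limit all went to the lower class, and in primary tumor Mouse_627 it held 683 spots at a median of 1934 UMIs against 619 spots at 2968 UMIs. In the other sections the upper and lower classes had close median depths, at 6538 and 6559.5 UMIs in lung Mouse_627, 1811 and 1815 in primary tumor Mouse_628, and 9168.5 and 9162 in lung Mouse_628. With only spots of at least 2000 UMIs, edgeR called 2 of the 8 genes, against 3 in the main fit, beside 0.666% of all genes. The part of depth in the results was not tested further. The markers summed to 4696 against 2204 CPM in rich and poor spots of primary tumor Mouse_627 and 5357 against 2115 CPM in primary tumor Mouse_628. They summed to 989 against 264 CPM in lung Mouse_627 and 1554 against 315 CPM in lung Mouse_628. Over all of lung Mouse_627, Car9, Ndrg1 and Adm had only 2.16, 19.2 and 8.27 CPM. Vegfa, another of the markers, had 304 CPM there, above 139 and 133 CPM in primary tumors Mouse_627 and Mouse_628. Whether the classes of lung Mouse_627 differ in hypoxia was not tested.

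Slc2a1 measured 1111 against 716 CPM in hypoxia-rich and hypoxia-poor spots of primary tumor Mouse_627, 1562 against 902 CPM in primary tumor Mouse_628 and 299 against 154 CPM in lung Mouse_628, but 155 against 175 CPM in lung Mouse_627. Pfkl measured 619 against 462, 732 against 540, 323 against 171 and 77.9 against 67.9 CPM in the same order of sections. Hk2 measured 93.1 against 70.5, 93.8 against 67.4, 47.7 against 29.97 and 25.7 against 25.2 CPM. These 3 genes were therefore higher in the rich spots of both tumors and of lung Mouse_628, and in lung Mouse_627 the log2 ratios were -0.18 for Slc2a1, 0.20 for Pfkl and 0.03 for Hk2. Pfkl and Hk2 were higher in the rich spots of all 4 sections, as 8.1% of all genes were.

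These were also the 3 of the 8 genes that edgeR called higher with the section as a block, where 0.654% of 12229 genes passed in either direction and 0.507% were higher. Slc2a1 had a log2 fold change of 0.59 ± 0.13 (edgeR adjusted p = 0.048), Pfkl of 0.53 ± 0.10 (0.016) and Hk2 of 0.46 ± 0.10 (0.043). Pgk1 at 0.40 ± 0.12, Aldoa at 0.36 ± 0.11, Pkm at 0.22 ± 0.10 and Hk1 at 0.21 ± 0.09 brought the number with an unadjusted p under 0.05 to 7 of the 8, beside 13.1% of all genes, at edgeR adjusted p-values of 0.14, 0.17, 0.36 and 0.30. Slc16a3 stood at -0.037 ± 0.084 (edgeR adjusted p = 0.89), with 79.8 against 75.8 CPM, 95.9 against 91.3 CPM, 68.0 against 78.0 CPM and 211 against 215 CPM in the same sections. It differed little between the classes in any section. The median of the 8 was 0.38 beside -0.025 over all genes tested.

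DESeq2 called Pfkl alone (adjusted p = 0.0042), and of 13 alternative settings edgeR or DESeq2 called Pfkl in 9, Slc2a1 in 5 and Hk2 in 4. Without lung Mouse_627, 5 genes were called, with Slc2a1 at a log2 fold change of 0.82 (edgeR adjusted p = 0.00073) and Aldoa and Pgk1 added, in a fit that called 0.552% of all genes. Without primary tumor Mouse_628 none of the 8 was called, and without primary tumor Mouse_627 or lung Mouse_628 Pfkl alone was. Over the 13 alternatives the log2 fold changes ran from 0.49 to 0.93 for Slc2a1, from 0.43 to 0.76 for Pfkl and from 0.39 to 0.73 for Hk2. Inside carcinoma-rich spots none was called, at log2 fold changes of 0.56 for Slc2a1, 0.48 for Pfkl and 0.40 for Hk2. Carcinoma markers were similar in rich and poor spots of primary tumor Mouse_627 (3723 and 3785 CPM) and primary tumor Mouse_628 (4417 and 4557 CPM), but stood at 1311 against 889 CPM in lung Mouse_628, and by edgeR none of the 5 was called. Other marker lists were lower in the hypoxia-rich spots in the same fit. All 10 neutrophil markers had negative fold changes with 1 called, all 7 tested cardiac markers with 3 called, 5 of 6 endothelial markers and all 3 tested erythroid markers with none called and 5 and 3 at an unadjusted p under 0.05. The neutrophil markers summed to 26774 against 37597 CPM and the cardiac markers to 406 against 750.0 CPM in lung Mouse_628, but to 3017 against 2261 CPM and 44.0 against 36.4 CPM in primary tumor Mouse_627. The part of these cells in the difference was not tested.

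Over 4 classes of about equal size (568 to 683 spots in primary tumor Mouse_627), from the lowest to the highest score, Slc2a1 rose in steps from 716 to 897, 1012 and 1111 CPM in primary tumor Mouse_627 and from 902 to 1173, 1281 and 1562 CPM in primary tumor Mouse_628. In lung Mouse_628 it measured 154, 169, 181 and 299 CPM, so that most of the difference lay in the uppermost class. Lung Mouse_627 ran the other way with 175, 163, 160 and 155 CPM. Pfkl, Aldoa and Pgk1 had the same shape in lung Mouse_628, with 171, 163, 197 and 323 CPM for Pfkl.

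**Figure D4:**
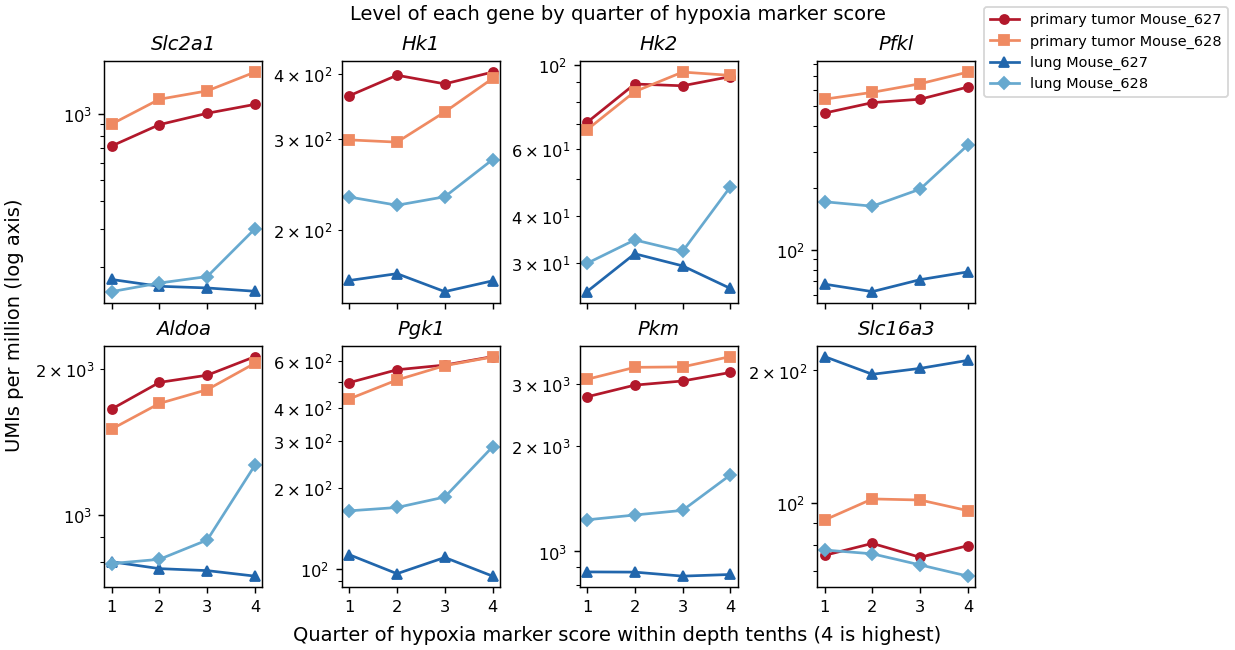
Level of each gene in CPM (vertical log axis, scaled for each panel) in 4 classes of spots by hypoxia marker score, 1 line per section. Slc2a1 climbs from 716 to 1111 and from 902 to 1562 CPM in the primary tumors, lung Mouse_628 turns up in the uppermost class, and lung Mouse_627 (175 to 155 CPM) and Slc16a3 vary little.

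Whether the difference between hypoxia-rich and hypoxia-poor spots itself differed between lungs and tumors was tested by the interaction term. None of the 8 genes was called, where edgeR called 0.244% of 17598 genes, and only Slc16a3 had an unadjusted p under 0.05, beside 7.89% of all genes (-0.36 ± 0.16, edgeR adjusted p = 0.57). DESeq2 called none either, with an adjusted p for 6 of the 8 (not Hk2 and Slc16a3) and for 880 of all genes. Among the other genes of the route, 2 of 21 were called higher in hypoxia-rich spots and none lower. In that fit, without the interaction, 0.507% of all genes were called higher. Eno2 measured 178 against 123, 232 against 127, 46.2 against 14.7 and 7.15 against 6.05 CPM in primary tumors Mouse_627 and Mouse_628 and lungs Mouse_628 and Mouse_627 (log2 fold change 0.94 ± 0.13, edgeR adjusted p = 0.00093). Aldoc had a log2 fold change of 0.74 ± 0.13 (edgeR adjusted p = 0.014), and of the 15 tricarboxylic acid cycle genes none was called or had an unadjusted p under 0.05.

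Neutrophils are known to live largely on glycolysis, and 4T1 tumors are known to raise their numbers. Spots rich in 10 neutrophil markers were compared with poor ones in the same manner. In primary tumor Mouse_627 the poor class again took in ties, with 760 spots at a median of 1327 UMIs against 619 spots at 2935 UMIs. The markers summed to 5387 against 900 CPM in primary tumor Mouse_627, 23550 against 3875 CPM in primary tumor Mouse_628, 105071 against 55701 CPM in lung Mouse_627 and 59804 against 8549 CPM in lung Mouse_628. Slc16a3 measured 102 against 61.8 CPM in rich and poor spots of primary tumor Mouse_627, 161 against 55.9 CPM in primary tumor Mouse_628, 254 against 156 CPM in lung Mouse_627 and 114 against 34.8 CPM in lung Mouse_628. It was higher in the rich spots of all 4 sections, by log2 ratios of 0.73, 1.53, 0.70 and 1.72, a direction in every section that 7.33% of all genes shared. Beside the neutrophil markers, the 3 erythroid, 9 alveolar and 6 endothelial markers tested all had positive fold changes, with none called and 3, 3 and 1 at an unadjusted p under 0.05. The 11 proliferation and 7 cardiac markers tested had negative ones, as did 5 of 8 macrophage markers, with 9, 5 and 6 of the lists at an unadjusted p under 0.05 and none called. Their part in the level of Slc16a3 was not tested.

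edgeR called none of the 8 genes in this split, as it called 0% of 12214 genes, with 16.8% at an unadjusted p under 0.05. Slc16a3 was the only one of the 8 with an unadjusted p under 0.05 (0.00051), at a log2 fold change of 1.34 ± 0.22 (edgeR adjusted p = 0.16). DESeq2 called it (adjusted p = 5.4e-06) and none of the others, beside 3.98% of all genes. Over 13 alternatives it was called in 4, among them the one without primary tumor Mouse_627 (1.55, edgeR adjusted p = 0.043) and the one without carcinoma-rich lung spots (1.21, edgeR adjusted p = 0.042), and its log2 fold change ran from 1.15 to 1.89. The interaction with tissue stood at 0.29 ± 0.43 for Slc16a3, and by edgeR none of the 8 was called for it or had an unadjusted p under 0.05, with 0% of 17878 genes called and 12.1% at an unadjusted p under 0.05. DESeq2 called none of the 8 for the interaction, and gave all 8 an adjusted p.

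The other 7 genes had no common direction in this split, with a median over the 8 of -0.024 beside -0.025 over all genes. In lung Mouse_628 all 7 were lower in neutrophil-rich spots, with log2 ratios from -0.52 for Hk1 to -1.47 for Pfkl. There Pfkl measured 128 against 355 CPM, Pgk1 138 against 308 CPM and Slc2a1 155 against 295 CPM. In primary tumor Mouse_627 these 3 genes were higher in the rich spots, with 581 against 500 CPM, 618 against 517 CPM and 1121 against 775 CPM. In primary tumor Mouse_628 they measured 565 against 618 CPM, 494 against 547 CPM and 1267 against 1137 CPM. Only Slc2a1 of the 3 was higher there. The same 3 genes measured 64.7 against 75.3 CPM, 111 against 98.4 CPM and 172 against 151 CPM in lung Mouse_627, with Pfkl alone lower. In lung Mouse_628 the carcinoma markers were also lower in the neutrophil-rich spots, at 596 against 1588 CPM, and the hypoxia markers at 535 against 1258 CPM, and their part in the lower levels was not tested.

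None of 21 other genes of the route was called by edgeR between neutrophil-rich and neutrophil-poor spots, 7 had an unadjusted p under 0.05, and DESeq2 called 4, all higher. These were Slc2a3, Hk3, Pfkfb4 and Pfkfb3, named after their values were seen, and the first 3 are also those called higher in the lungs. Slc2a3 measured 65.9 against 27.5, 118 against 33.3, 478 against 287 and 306 against 49.7 CPM in primary tumors Mouse_627 and Mouse_628 and lungs Mouse_627 and Mouse_628 (log2 fold change 1.79 ± 0.32, edgeR adjusted p = 0.16). It was higher in the rich spots of every section, as Slc16a3 was.

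**Figure D5:**
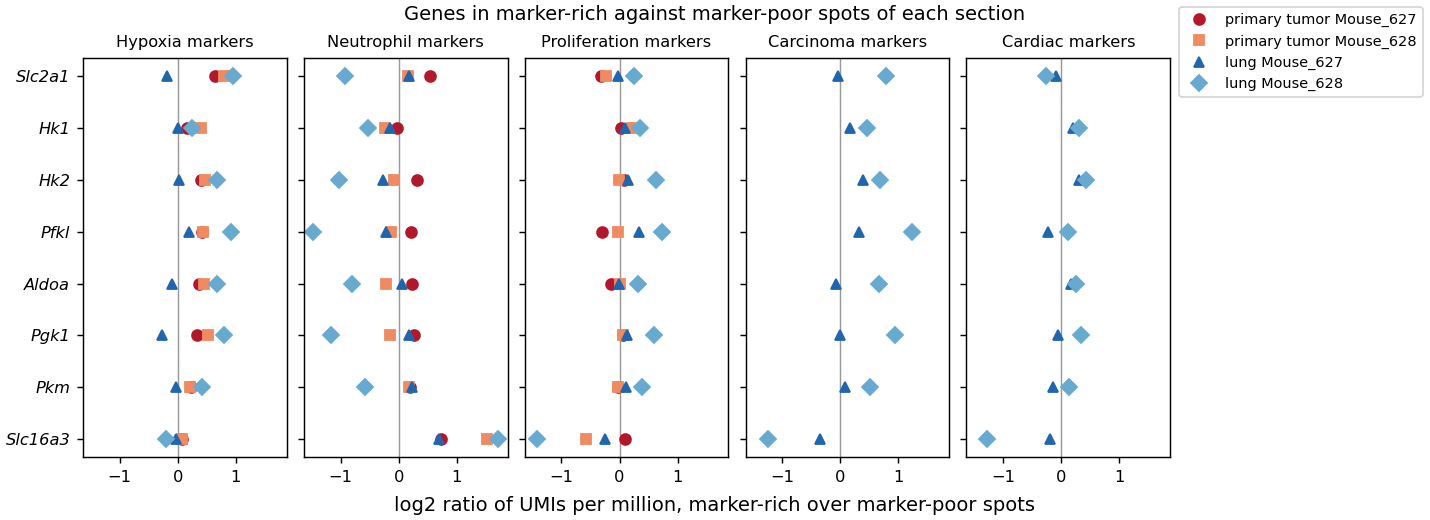
Log2 ratio of CPM in marker-rich over marker-poor spots (horizontal axis) for each gene, 1 point per section, with 1 panel per marker list. Slc16a3 lies to the right of 0 in all 4 sections for neutrophil markers (0.70 to 1.72), while the other genes lie to the right for hypoxia markers in both tumors and lung Mouse_628.

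Classes by proliferation markers were unequal through ties, with 1020 poor spots at a median of 680 UMIs against 601 rich spots at 3396 UMIs in primary tumor Mouse_627 and 749 at 1592 against 592 at 1817.5 UMIs in primary tumor Mouse_628. Between them edgeR called none of the 8 genes, beside 1.27% of 12313 genes, and DESeq2 none. Slc16a3 alone had an unadjusted p under 0.05, beside 21.9% of all genes, at -0.61 ± 0.23 (edgeR adjusted p = 0.19). It measured 74.5 against 69.9 CPM in proliferation-rich and proliferation-poor spots of primary tumor Mouse_627, 77.5 against 115 CPM in primary tumor Mouse_628, 174 against 206 CPM in lung Mouse_627 and 38.5 against 104 CPM in lung Mouse_628. It was lower in 3 of the 4 sections, and neutrophil markers were lower in proliferation-rich spots as well, with all 10 at negative fold changes, and their part in the result was not tested. Slc2a1 was lower in the proliferation-rich spots of both tumors, with 819 against 1020 CPM and 1078 against 1264 CPM, and higher in those of lung Mouse_628, with 224 against 188 CPM, at -0.15 ± 0.13 over the 4 sections (edgeR adjusted p = 0.51). The median of the 8 was 0.077 beside -0.023 over all genes. No interaction with tissue was called for any of the 8 by edgeR, which called 0% of 18179 genes, with 1 of the 8 and 9.63% of all genes at an unadjusted p under 0.05, or by DESeq2, which gave an adjusted p to 6 of the 8 (not Hk2 and Slc16a3).

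Some lung spots were rich in cardiac muscle markers, a tissue that favors its own isoforms of the route. The upper 5% of spots by this score (90 and 140 in lungs Mouse_627 and Mouse_628) was compared with the lower 50%, which with ties at the limit came to 1089 of 1697 and 1442 of 2780 spots. None of the 8 genes was called by edgeR, beside 3.14% of 12533 genes, or by DESeq2, and Slc16a3 alone had an unadjusted p under 0.05, beside 14.9% of all genes. It measured 182 against 208 CPM in lung Mouse_627 and 31.4 against 76.0 CPM in lung Mouse_628 (-0.75 ± 0.23, edgeR adjusted p = 0.10). Of 7 alternatives, 4 called it lower, and over all 7 its log2 fold change ran from -0.79 to -0.39. Neutrophil markers stood at 14683 against 36469 CPM in lung Mouse_628, and their part was not tested. Isoforms known from striated muscle rose, with Pgam2 at a log2 fold change of 6.38 ± 0.35 and the glucose transporter gene Slc2a4 (GLUT4) at 3.61 ± 0.41 (edgeR adjusted p = 2.5e-08 and 7.1e-05), with 4 of 22 other genes of the route called higher and 1 lower. In the same fit 4 of 5 skeletal muscle and 5 of 7 fibroblast markers were called higher, and 3 of 9 alveolar and 3 of 6 endothelial markers lower, and the part of these cells was not tested. The remaining calls, named after their values were seen, were Pfkm at 1.31 and Eno3 at 1.18, both known from muscle, and Pfkfb4 at -0.82 (edgeR adjusted p = 0.0063, 0.0030 and 0.033). DESeq2 did not call Pfkfb4 (adjusted p = 0.30), and called the other 4.

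Within sections, single spots held few UMIs of most of these genes. After thinning to 2000 UMIs per spot, which left out 1108 and 1331 spots of primary tumors Mouse_627 and Mouse_628 and 75 and 82 spots of lungs Mouse_627 and Mouse_628, Slc2a1 was seen in 84.4% and 89.2% of tumor spots and in 28.9% and 30.3% of lung spots. Unthinned, at the median depths given above, these shares were 72.8%, 80.4%, 62.5% and 76.5%. Slc16a3 was seen in 16.1% and 23.3% of thinned tumor spots and in 34.2% and 16.2% of those of lungs Mouse_627 and Mouse_628, and unthinned in 28.8%, 30.5%, 68.6% and 50.5%. As a background, 1178 olfactory and vomeronasal receptor genes, which these tissues should lack, had a mean of 0.0040, 0.036, 0.0013 and 0.0017 UMIs per gene and spot in primary tumors Mouse_627 and Mouse_628 and lungs Mouse_627 and Mouse_628. Hk2 had 0.46, 0.39, 0.18 and 0.39 UMIs per spot and Slc16a3 0.42, 0.45, 1.35 and 0.80, and the other genes had more than Hk2, so that all 8 stood above that background in every section.

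Over thinned spots, the correlation between pairs of the 8 genes had a median of 0.028 and -0.0058 in primary tumors Mouse_627 and Mouse_628 and of 0.00059 and 0.038 in lungs Mouse_627 and Mouse_628, with a highest value of 0.16. Over the same spots unthinned the medians were 0.051, 0.059, 0.020 and 0.15, with a highest value of 0.36 between Pfkl and Pkm in lung Mouse_628. Spots share a library and the counts are sparse, so no relation was read from these values. A spot's level and the mean of its neighbors correlated, over thinned spots of primary tumors Mouse_627 and Mouse_628 and lungs Mouse_627 and Mouse_628, at 0.27, 0.11, 0.03 and 0.11 for Slc2a1 and at 0.08, 0.01, 0.01 and 0.27 for Pfkl (1348, 970, 1611 and 2684 spots). Other genes were also correlated with the mean log level of the 8 genes, and the correlations were averaged over the 4 sections. The most alike of 1209 genes compared were Ctsl (0.14), B2m (0.12) and Vim (0.11), beside a median of 0.0048. Pabpc1, Tpt1, Mt1, Eef1a1, Lgals1, Npm1 and Mt2 followed (0.099 to 0.073), and in lung Mouse_627 alone Ctsl stood at 0.049.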

How the data were processed

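For every spot the authors deposited its position and unnormalized UMI counts of each gene. The header of the counts gives Space Ranger 2.0.0, and the submitters' processing notes give mm10. The aligner settings are not given in the sources used here. Spots with more than 200 genes were kept, which left 9339 of 9445. UMIs were summed per section, or per section and class of spots, since spots are not replicates and p-values measure the spread between sections. Class scores were log values of marker UMIs per 10000 with 1 added. The test was the quasi-likelihood one of edgeR 4.0.16 under R 4.3.3 (TMM, filterByExpr, Benjamini-Hochberg adjustment over all genes tested, threshold 0.05), with DESeq2 1.42.0 as an alternative. SE is the fold change over the square root of F. The number of sections limits what can be called. Tested on simulated data of lung against primary tumor (15267 genes), 26.8% of changes of 2 on the log2 scale and 0% of changes of 1 were recovered. For the hypoxia split (12229 genes) it was 100% of changes of 2, 93.2% of 1 and 66.7% of 0.5. For the carcinoma split (13201 genes) it was 95.5%, 52.3% and 3%. Unchanged genes called numbered 0, 3 and 7 in the same order. The simulation changed only a few genes and took its spread from the trend over genes. In the real carcinoma split edgeR called none of the 5 carcinoma markers, at a median log2 fold change of 3.58. The simulated shares therefore need not hold for the real tests.

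The titles give both sections of a mouse the same number, so the mouse pairs them. Deviations of these sections from their tissue means correlated at -0.308 over 15267 genes and, in carcinoma-rich spots, at -0.374. Of the 10 genes of the rule, the 8 analysed are all reported. Of other listed genes, up to 2 called higher and 2 called lower with the largest changes are named per comparison. Genes and lists were chosen with earlier results of these data known. Doublets do not apply to spots, and no deconvolution was done. Sections shared 1458 to 2094 spot barcodes, which name slide positions. Python 3.11.15, numpy 2.4.6 and pandas 2.3.3 were used. Coordinates are from the annotation used with mm10 and promoters from RefSeq GRCm38.p6. Alternatives covered the block, tool, scaling, filters, classes and each section left out.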

Additional observations from a re-analysis of the deposited data

How the results depend on the processing

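Of 406 recomputed fold changes of genes whose fit is given in the text, 336 kept their direction and side of the threshold, 23 lost and 42 gained a call, and 5 changed sign. Of these, 4 belong to Slc16a3, at -0.7644 between carcinoma-rich spots without lung Mouse_627, and in the hypoxia split at 0.0369 with the outer 10% in place of 25%, 0.0378 within carcinoma-rich spots and 0.0587 without lung Mouse_628, and 1 to Slc2a1 by proliferation, at 0.1178 with classes over the whole section. Over all 8 genes, comparisons and alternatives, 42 of 736 fold changes changed sign, none of them with a call on either side. Of these, 12 lay in the neutrophil split, 7 in the proliferation split and 5, 4 and 9 in the interactions with hypoxia, neutrophils and proliferation, and none in lung against primary tumor or the carcinoma split. With a section left out, Slc16a3 ranged from -0.7644 to 1.4063 between carcinoma-rich spots and from -0.0879 to 0.0587 in the hypoxia split. The cause was not tested for any of these changes.

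For lung against primary tumor, where 1 of the 8 genes was called, DESeq2 called 5, RLE factors 3 and no filter on low counts 2, and leaving out a section gave 0 to 2. The mouse as a replicate block gave 3 of the 8 genes and 1817 of all genes in place of 1139. The crossed pairing as a block, chosen after seeing the data, gave 4 and 2565. Between carcinoma-rich spots, where 0 were called, DESeq2 called 4, no filter 1, the crossed pairing as a block 3, and leaving out a section gave 0 to 5, while the mouse as a block left 0. Carcinoma-rich against carcinoma-poor lung spots gave 2 in place of 0 with no filter.

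In the hypoxia split, where 3 were called, the fit with no replicate block gave 0, DESeq2 1 and no filter 5. Spots of at least 2000 UMIs gave 2, classes over the whole section 0 and spots within the carcinoma-rich class 0. Scores without Vegfa, chosen after seeing the data, gave 1. Leaving out a section gave 0 to 5. In the neutrophil split, where 0 were called, 1 was called by DESeq2, with no filter and without carcinoma-rich lung spots, the last chosen after seeing the data, as were library sizes without neutrophil markers, which left 0. Leaving out a section gave 0 to 1. In the cardiac split, 1 in place of 0, namely Slc16a3, was called with RLE factors, no filter, spots of at least 2000 UMIs and classes over the whole section. The block changed no other call of these genes. Counts over all genes moved more, from 486 to 6604 around 1139 for the tissues (highest without primary tumor Mouse_627), 0 to 2570 around 0 between carcinoma-rich spots, 0 to 1899 around 0 within lungs, 0 to 526 around 80 by hypoxia, 0 to 581 around 156 by proliferation, 0 to 486 around 0 by neutrophils, 0 to 971 around 394 by cardiac markers, 2 to 160 around 43 for the interaction with hypoxia, and 0 to 80 and 0 to 85 around 0 for the interactions with neutrophils and proliferation. With 2 lungs, leaving out a mouse was not possible in the carcinoma and cardiac splits, since 1 section leaves no residual degrees of freedom. Where 1 section of a tissue was left, it was assumed to vary like the others.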
